A study of Mus musculus with 6 samples.

Results

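Resident macrophage genes were followed in sorted NKT cells of the mouse thymus. The 32 genes were selected on the difference in signal between CD103+ and CD103- arrays seen in an earlier pass over the same data, so their differences are a description. Counts of them past a threshold are printed beside the share of all genes past it and support nothing. Every probe assigned to one of them by the annotation of the array was taken, which gave 58 probes for 31 genes, of 19057 genes named on the array, while Cd68 had no probe assigned and was not analysed here.

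NKT cells are T lymphocytes with an invariant receptor for lipids on CD1d. Mature thymic NKT cells, sorted as CD44+ and NK1.1+ from male C57BL/6 mice, were parted by CD103, the integrin chain that binds E-cadherin, into a CD103+ and a CD103- population. Each was measured on 3 Illumina bead arrays, called biological replicates by the series design, and neither population carried a deletion or a treatment according to the labels. The labels do not state how many animals went into each sample.

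Resident macrophages live in tissues for long times, depend on the receptor for CSF1, take up dying cells, and recycle their lipid and iron. In the thymus they clear the many thymocytes that die during selection. Their genes encode lysozyme, the complement protein C1q, lipid carriers, the iron exporter ferroportin, scavenger receptors and adhesion molecules.

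The arrays differed in brightness, with a mean signal of 501.6 to 825.9 on the CD103+ arrays, against 276.5 to 526.1 on the CD103- arrays, of which arrays 2 and 3 were dim. The 3 arrays in each population limit the precision of the values. Itgae, which encodes CD103, had log2 signals of 13.43, 13.80 and 13.57 in CD103+ cells, against 8.61, 9.07 and 8.94 in CD103- cells, as the labels have it. Some T cell transcripts were bright in both populations. Cd3g lay at 14.56, 14.69 and 14.53 in CD103+ cells, against 14.42, 14.19 and 14.23 in CD103- cells. All 14 measured genes of the NKT and T cell list were detected on all 6 arrays. On all CD103+ arrays 4 of the 14, Itgae and Cd3g among them, lay above all CD103- arrays and 5 lay below. The shares of all genes were 14.5% and 8.72%, and these counts are a description.

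A probe counted as detected where its detection p-value, the array software's measure of signal above background, was under 0.05. It was tested where it was detected on at least 3 of the 6 arrays. Of the 58 probes 32 were tested and 20 were detected on no array. A tested probe stood for 26 genes, the one with the highest mean where there were several. Values below are background-corrected, quantile-normalized log2 signals in the order of arrays 1, 2 and 3, and differences are CD103+ minus CD103- with the SE of limma's fit.

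Detection itself differed between the populations. Of the 26 genes 26, 25 and 26 were detected on the CD103+ arrays, against 10, 8 and 10 on the CD103- arrays. Of all probes 39.8%, 38.3% and 40.5% were detected on the CD103+ arrays, against 38.8%, 34.0% and 35.2% on the CD103- arrays. A filter on 3 arrays, applied to genes selected on this contrast, favours high CD103+ counts. On no CD103- array were 13 of them detected, as were 1.76% of all 8999 genes tested. These 13 entered the test through the CD103+ arrays alone and could hardly be lower there. In bulk samples fewer cells of a type and less RNA per cell cannot be told apart.

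**Figure D1:**
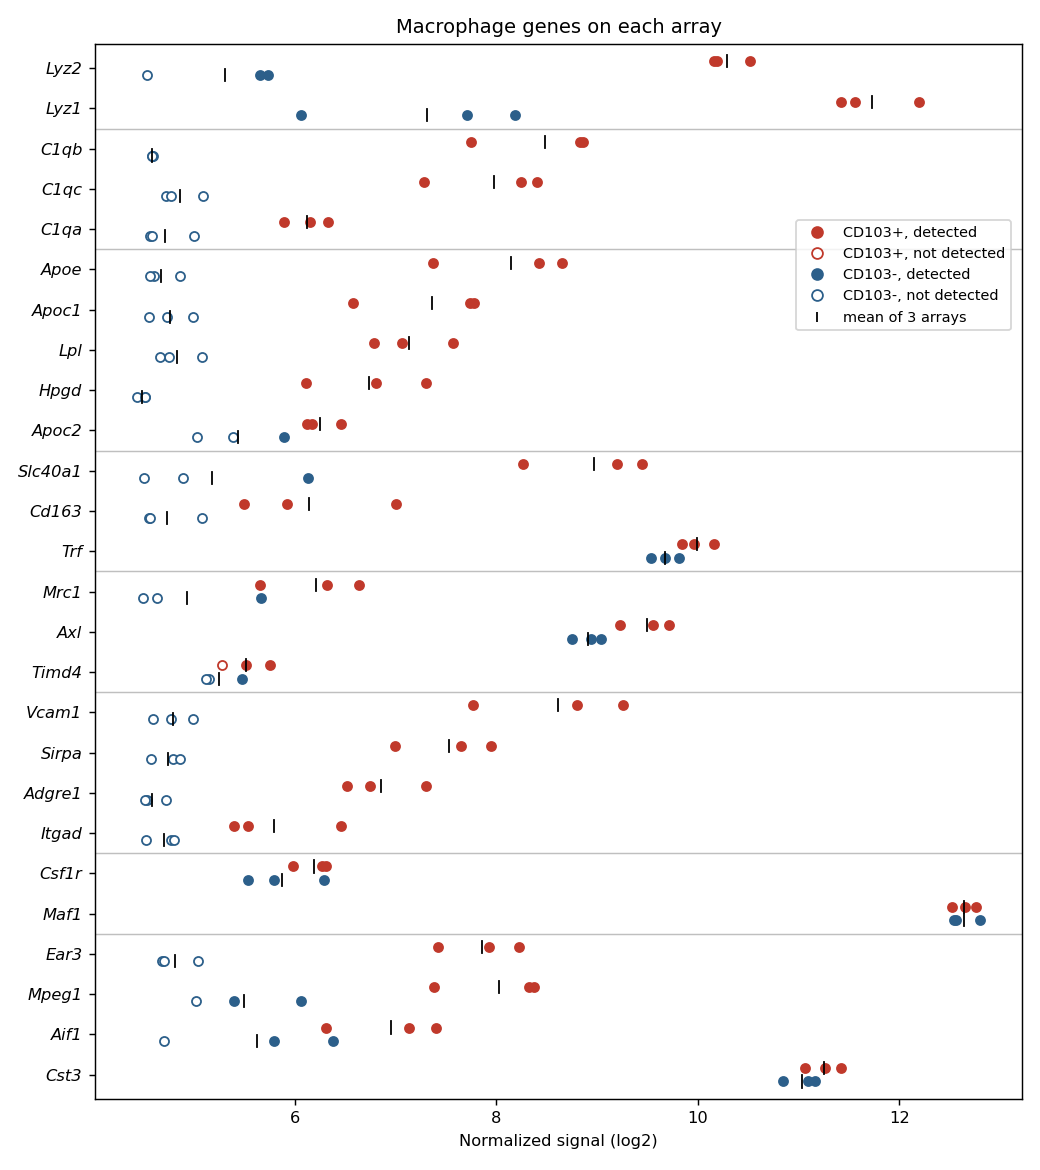
Normalized log2 signal of the 26 tested macrophage genes on each array, with CD103+ arrays in red above CD103- arrays in blue for each gene, open points for arrays where the probe was not detected, and ticks for the mean of 3 arrays. Lines part the genes by role. Among the genes with open CD103- points on every array, C1qb lay at 7.74 to 8.86 on CD103+ arrays, while Maf1, Cst3, Csf1r and Trf lay close together in both populations.

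Of the 26 genes 15 were past an adjusted p of 0.05 in limma's fit over all probes, all 15 higher in CD103+ cells and 0 lower, where 1.16% of all genes tested were higher and 0.222% lower. With the replicate number as a block 11 of the 15 remained, without C1qa, Lyz1, Mpeg1 and Slc40a1. On all 3 CD103+ arrays 20 of the 26 lay above all 3 CD103- arrays and 0 lay below, against 14.5% and 8.72% of all genes. Every one of the 26 had a positive difference, as had 56.9% of all genes. The median difference was 2.26 over the 26, or 1.35 with the 13 undetected genes at their lower bound, against 0.05 over all genes on either count. Since these genes were named with this contrast in view, and genes undetected in CD103- cells could hardly differ downwards, nothing is read from these counts.

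The lysozymes digest bacterial cell walls. In the mouse Lyz2 is the form of macrophages and neutrophils, and Lyz1 is best known from Paneth cells of the gut. Lyz2 lay at 10.16, 10.51 and 10.20 in CD103+ cells, against 5.73, 4.53 and 5.65 in CD103- cells. The groups were far apart, and CD103- array 2, with a detection p of 0.795, did not detect it at all. The difference was 4.98 (SE 0.324), or 4.62 with that array at its lowest detected signal. Before normalization the Lyz2 signals were 1631, 3122 and 1289 in CD103+ cells, against 179, 121 and 142 in CD103- cells. Lyz1 lay at 11.56, 12.20 and 11.43 in CD103+ cells, against 7.70, 6.05 and 8.18 in CD103- cells. It was detected on all 6 arrays, with a difference of 4.41 (SE 0.523) and a spread over the CD103- arrays (SD 1.12, n = 3) wider than over the CD103+ arrays (SD 0.415, n = 3). Lyz1 and Lyz2 transcripts are close copies, so a probe for one may also bind the other, and the split between them is uncertain. A second Lyz2 probe showed 9.06, 10.09 and 8.89 in CD103+ cells, against 5.70, 4.63 and 4.85 in CD103- cells. The third Lyz2 probe and both other Lyz1 probes were detected on no CD103+ array.

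Both genes lie side by side on chromosome 10. Their promoters are the 250 bases before the start site from RefSeq (build GRCm38.p6, chr10:117292869-117293118 and chr10:117282273-117282522, both on the minus strand). They are shown because probes named for each of these neighbours were higher in CD103+ cells. Capitals mark ACTTCCT, which is AGGAAGT on the other strand, a core bound by factors of the ETS family such as PU.1.
Lyz1: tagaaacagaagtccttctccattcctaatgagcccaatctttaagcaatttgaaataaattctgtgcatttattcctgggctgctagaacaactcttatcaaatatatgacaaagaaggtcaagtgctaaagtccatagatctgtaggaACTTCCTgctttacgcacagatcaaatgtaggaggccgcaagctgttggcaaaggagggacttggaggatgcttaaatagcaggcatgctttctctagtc
Lyz2: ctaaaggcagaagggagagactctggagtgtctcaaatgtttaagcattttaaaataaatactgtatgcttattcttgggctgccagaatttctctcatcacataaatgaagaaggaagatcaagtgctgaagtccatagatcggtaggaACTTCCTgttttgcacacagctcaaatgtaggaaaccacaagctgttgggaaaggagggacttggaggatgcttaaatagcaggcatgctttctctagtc
Position by position the windows shared 152 of 250 bases, and 92 of the 100 bases next to the start site. The marked letters begin 100 bases before the start site in both. The nearest tested genes outside the pair, Yeats4 and Cpsf6, had differences of 0.05 (SE 0.127) and 0.46 (SE 0.191) and did not pass (adjusted p = 0.877 and 0.321 in limma's fit).

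C1q is the first component of the classical complement pathway, built from A, B and C chains that macrophages secrete. None of the chains was detected on any CD103- array, and all were detected on all CD103+ arrays. C1qb lay at 8.83, 7.74 and 8.86 in CD103+ cells, against 4.59, 4.57 and 4.58 in CD103- cells. C1qc lay at 8.40, 7.28 and 8.25 in CD103+ cells, against 4.71, 4.77 and 5.08 in CD103- cells. C1qa lay at 6.15, 5.89 and 6.33 in CD103+ cells, against 5.0, 4.56 and 4.58 in CD103- cells. Each chain was lowest on CD103+ array 2, and the populations did not overlap for any of them. Set against the detection limit of the CD103- arrays, the lower bounds were 7.97-fold for C1qb, 5.63-fold for C1qc and 1.56-fold for C1qa, all higher in CD103+ cells. These bounds and the later folds given as "at least" take, per CD103- array, the higher of the dimmest detected probe's signal and the gene's own.

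The chains lie next to each other on chromosome 4. The RefSeq promoter windows of C1qb (chr4:136886201-136886450, minus strand) and C1qc (chr4:136892915-136893164, minus strand) are shown for the same reason and marked in the same way.
C1qb: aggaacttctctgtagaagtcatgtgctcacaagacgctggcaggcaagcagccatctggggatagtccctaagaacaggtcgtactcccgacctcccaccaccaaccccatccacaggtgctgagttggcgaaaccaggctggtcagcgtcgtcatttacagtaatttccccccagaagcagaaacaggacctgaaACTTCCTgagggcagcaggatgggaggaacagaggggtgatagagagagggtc
C1qc: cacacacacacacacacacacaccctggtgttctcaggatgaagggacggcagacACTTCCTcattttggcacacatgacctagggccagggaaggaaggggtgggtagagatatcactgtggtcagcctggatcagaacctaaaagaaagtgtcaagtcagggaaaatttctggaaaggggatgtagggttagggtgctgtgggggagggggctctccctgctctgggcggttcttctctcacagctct
The marked letters begin 53 bases before the start site of C1qb and 195 bases before that of C1qc. Searched on both strands, AGGAAGT was in the windows of 6 of the 18 macrophage genes with a window (Lyz1, Lyz2, C1qb, C1qc, Mrc1 and Spic). By window it was in 6 of their 20, and in 7.69% of all 32851 windows of that length. The Lyz1 and Lyz2 windows are alike near the start site and do not count as separate cases. The longer GAGGAAGT, which contains AGGAAGT, was in 1 of the 20 windows, that of C1qc, and in 2.44% of all windows. The letters were chosen after the sequences had been seen, and a match is a description only. The nearest tested genes on either side of the C1q genes, Kdm1a and Zbtb40, had differences of 0.17 (SE 0.138) and 0.11 (SE 0.181), neither past the threshold (adjusted p = 0.612 and 0.809 in limma's fit).

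Genes of lipid handling followed. Apoe, the lipid carrier that macrophages secrete when they export cholesterol, lay at 8.42, 7.37 and 8.65 in CD103+ cells, against 4.86, 4.60 and 4.56 in CD103- cells, at least 6.33-fold higher. Its neighbour Apoc1, a small apolipoprotein, lay at 7.78, 6.58 and 7.74 in CD103+ cells, against 4.55, 4.73 and 4.98 in CD103- cells, at least 3.68-fold higher. A second Apoc1 probe was at least 1.25-fold higher, and neither lower bound says how far the probes differ. Both genes were again lowest on CD103+ array 2. Apoc2, the cofactor of lipoprotein lipase from the same cluster on chromosome 7, lay at 6.17, 6.45 and 6.12 in CD103+ cells, against 5.89, 5.02 and 5.39 in CD103- cells. That difference of 0.81 (SE 0.237) came to 0.56 with the 2 undetected CD103- arrays at their lowest detected signal. Tomm40, which adjoins Apoe, lay at -0.02 (SE 0.390, adjusted p = 0.984 in limma's fit). Lpl, lipoprotein lipase, lay at 7.57, 6.78 and 7.06 in CD103+ cells, against 4.74, 5.07 and 4.66 in CD103- cells, at least 3.15-fold higher. Hpgd, which inactivates prostaglandins, lay at 7.30, 6.11 and 6.80 in CD103+ cells, against 4.51, 4.43 and 4.51 in CD103- cells, at least 2.38-fold higher.

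Iron genes did not move as one. Slc40a1, ferroportin, through which macrophages return iron from digested red cells, lay at 9.44, 8.26 and 9.20 in CD103+ cells, against 4.89, 6.13 and 4.50 in CD103- cells. Only CD103- array 2 detected it, and the difference was 3.79 (SE 0.467), or 3.32 with the undetected arrays at their lowest detected signal. Cd163, the haemoglobin scavenger receptor, lay at 7.0, 5.50 and 5.92 in CD103+ cells, against 4.55, 5.07 and 4.56 in CD103- cells. The arrays did not overlap, the CD103+ arrays were widely spread (SD 0.777, n = 3), and the lower bound was 1.58-fold. Trf, the iron carrier transferrin, was bright everywhere, at 9.96, 9.84 and 10.16 in CD103+ cells, against 9.68, 9.82 and 9.53 in CD103- cells (difference 0.31, SE 0.157). Hmox1, which degrades haem, was detected on none of the 6 arrays, with detection p-values of 0.172 to 0.561 on the CD103+ arrays and 0.518 to 0.916 on the CD103- arrays.

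Adhesion and surface receptors were among the genes undetected in CD103- cells. Vcam1, an adhesion molecule of macrophages that hold on to developing blood cells, lay at 9.26, 7.76 and 8.80 in CD103+ cells, against 4.99, 4.59 and 4.77 in CD103- cells, at least 8.73-fold higher. The other 3 Vcam1 probes were detected on no array. Sirpa, the inhibitory receptor for CD47, lay at 7.94, 6.99 and 7.64 in CD103+ cells, against 4.79, 4.57 and 4.86 in CD103- cells, at least 4.12-fold higher. Adgre1, which encodes the macrophage antigen F4/80, lay at 7.30, 6.51 and 6.75 in CD103+ cells, against 4.53, 4.51 and 4.71 in CD103- cells, at least 2.59-fold higher. A further Adgre1 probe was at least 1.40-fold higher. Itgad, an integrin chain of splenic macrophages, lay at 6.46, 5.53 and 5.39 in CD103+ cells, against 4.77, 4.79 and 4.52 in CD103- cells. This is the brightest of its 5 probes, and the other tested one lay as close to the limit of detection, with lower bounds of 1.24-fold and 1.21-fold.

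Receptors for uptake and danger gave a mixed picture. Mrc1, the mannose receptor, lay at 6.63, 5.65 and 6.32 in CD103+ cells, against 4.63, 4.49 and 5.66 in CD103- cells, where CD103+ array 2 and CD103- array 3 overlapped. Axl, a receptor for apoptotic cells, was detected on all arrays at 9.55, 9.23 and 9.71 in CD103+ cells, against 8.75, 9.04 and 8.94 in CD103- cells (difference 0.59, SE 0.176). A dim second Axl probe went the other way, at -0.35 (SE 0.186). Timd4, which binds phosphatidylserine on dying cells, lay at 5.51, 5.27 and 5.75 in CD103+ cells, against 5.47, 5.15 and 5.11 in CD103- cells. Mertk, the best known receptor for apoptotic cells in macrophages, was detected on CD103+ array 3 alone, with a detection p of 0.0342. The scavenger receptor Marco was detected on CD103- array 3 alone. Cd14, the co-receptor for lipopolysaccharide, was detected on no array, with its lowest detection p of 0.0705 on CD103+ array 3.

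The lineage genes did not behave alike. Csf1r, the CSF1 receptor on which macrophages depend, was detected on all arrays at 6.31, 5.98 and 6.27 in CD103+ cells, against 5.54, 6.29 and 5.79 in CD103- cells (difference 0.31, SE 0.221), and the populations overlapped. Spic, a PU.1-like factor of iron-recycling macrophages, was detected on CD103+ arrays 1 and 3 and on no CD103- array, so it was not tested. Its signals were 6.43, 5.27 and 6.20 in CD103+ cells, against 4.55, 4.84 and 4.88 in CD103- cells. The difference was 1.21 without overlap, with a lower bound of 1.40-fold and a detection p of 0.0609 on CD103+ array 2. The other Spic probe was detected on no array. Maf1 represses RNA polymerase III and is no macrophage gene by its known function. Maf1 lay at 12.65, 12.76 and 12.53 in CD103+ cells, against 12.81, 12.56 and 12.55 in CD103- cells (difference 0.01, SE 0.150). Set against the name of the group, Adgre1 did not overlap between the populations and Csf1r did. Csf1r was itself dim, at 5.54 to 6.31 where the lowest detected signals of the arrays were 5.19 to 5.64. Its overlap therefore does not show that the populations were alike, and its other probe was detected on no array. Spic, detected on 2 arrays, Mertk, on 1, and Cd14, on none, lay too near background for such a comparison.

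Of the remaining genes, Mpeg1, which encodes the pore-forming perforin-2 of phagocytes, lay at 8.32, 8.37 and 7.38 in CD103+ cells, against 5.39, 5.02 and 6.06 in CD103- cells. The difference was 2.54 (SE 0.351), or 2.33 with CD103- array 2 at its lowest detected signal, and here CD103+ array 3 was the low one. Ear3, of the eosinophil-associated ribonuclease family, lay at 8.23, 7.42 and 7.92 in CD103+ cells, against 5.04, 4.68 and 4.69 in CD103- cells, at least 5.19-fold higher. The other 2 Ear3 probes were detected on no array, and since the family has close copies the name rests on the annotation. Aif1, the actin-binding protein IBA1, lay at 7.14, 6.31 and 7.40 in CD103+ cells, against 4.70, 5.79 and 6.37 in CD103- cells. Its difference was 1.33 (SE 0.455), or 1.13 with CD103- array 1 at its lowest detected signal, and the populations overlapped. A second Aif1 probe also overlapped, with a difference of 1.08 (SE 0.331), or 0.86 with its undetected CD103- arrays treated likewise. The third Aif1 probe was detected on no array. Cst3, the protease inhibitor cystatin C, lay at 11.26, 11.07 and 11.42 in CD103+ cells, against 10.84, 11.16 and 11.10 in CD103- cells (difference 0.21, SE 0.164).

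Agreement among the 3 CD103+ arrays was looser for these genes than for most. The median range over the CD103+ arrays was 0.876 log2 units for the 26 genes and 0.297 for all 8999 genes, while over the CD103- arrays, where many lay at background, it was 0.384 for the 26 and 0.452 for all genes. CD103+ array 2 was the lowest of its population for 20 of the 26, as it was for 35.6% of all genes. Relative to the mean of CD103+ arrays 1 and 3, array 2 stood at -1.27 log2 units for Vcam1, -1.18 for Apoc1, -1.16 for Apoe, -1.1 for C1qb, -1.06 for Slc40a1 and -1.04 for C1qc. Among the 100 genes that were lowest on this array by that measure, 1.11% of all genes, 11 were macrophage genes of this set. Against this, 5 of the 26 were highest on array 2. They were Lyz1 (0.71 above the mean of arrays 1 and 3), Mpeg1 (0.52), Lyz2 (0.34), Apoc2 (0.31) and Maf1 (0.17). The lysozymes were thus highest on the array where C1q, Vcam1 and ferroportin were lowest, while Mpeg1 was level on arrays 1 and 2 and low on array 3.

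**Figure D2:**
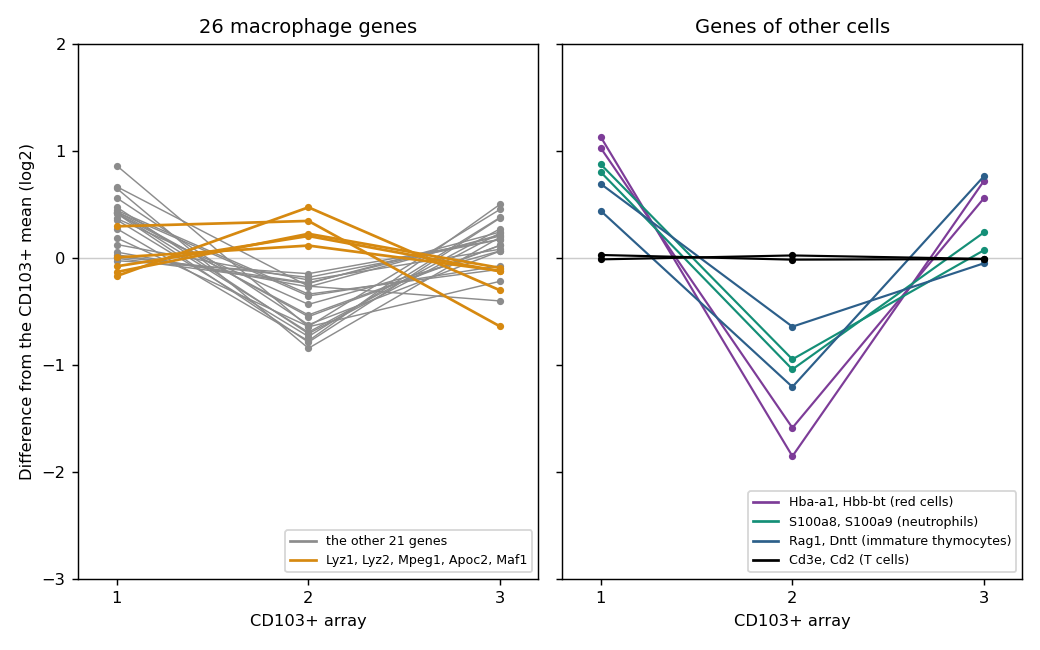
Each line is a gene, and each point its log2 signal on a CD103+ array minus its mean over the 3 CD103+ arrays. On the left, 20 of 26 macrophage genes were lowest on array 2, and the 5 in orange were highest there; on the right, Hba-a1 and Hbb-bt, S100a8 and S100a9, and Rag1 and Dntt were also lowest on array 2, while Cd3e and Cd2 were level.

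Other lists differed in this respect. CD103+ array 2 was the lowest for 9 and the highest for 7 of 20 other macrophage genes, whose median against arrays 1 and 3 was 0.05, for 0 and 3 of 3 monocyte genes, and for 1 and 3 of 4 dendritic cell genes. Some genes of red cells, immature thymocytes and neutrophils were low on it. The globin genes Hba-a1, with 9.35, 6.36 and 8.94 in CD103+ cells, and Hbb-bt, with 9.49, 6.88 and 9.02, were lowest on array 2. They were the only 2 tested of the 8 listed erythroid genes with a probe. The globin gene Hbb-bs, outside the list, was tested too and was also lowest on CD103+ array 2. Before normalization the summed signal of Hba-a1 and Hbb-bt was 2056, 693 and 1242 on the CD103+ arrays, against 797, 461 and 316 on the CD103- arrays. In the immature thymocyte list all 6 tested genes were lowest on CD103+ array 2, such as Dntt, terminal transferase, at 6.84, 5.20 and 7.17 in CD103+ cells, against 6.82, 5.11 and 7.78 in CD103- cells. Of the neutrophil genes 3 of the 4 tested were lowest there, among them S100a8 at 8.72, 6.87 and 8.16 in CD103+ cells, against 4.58, 7.55 and 7.50 in CD103- cells. The summed signal of the 4 before normalization was 1376, 1060 and 928 on the CD103+ arrays, against 602, 618 and 584 on the CD103- arrays. That of the thymocyte genes was 4018, 4974 and 3232, against 3442, 1574 and 1686. These sums include background and follow the brightness of the arrays, so they do not compare the populations. After normalization the median difference was 0.61 for the tested erythroid genes, 0.81 for the neutrophil genes and -0.15 for the thymocyte genes. The brightest thymocyte genes, Cd8b1 and Cd1d1, had differences of -0.38 and 0.30. None of the named genes of these lists was past the threshold between the populations (adjusted p = 0.296 to 0.930, limma). The 4 genes with array values were singled out after these values had been seen. Their part in the macrophage values was not tested.

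Other macrophage genes, 40 that were not in the set of 32, were set beside it in a list also written with earlier results of these arrays known. Of 20 tested members 5 were higher in CD103+ cells and 0 lower (1.16% and 0.222% of all genes). Of these 5, Tgfbi, Fcgr3 and Ms4a7 were detected on no CD103- array. They were thus tested through the CD103+ arrays alone and could hardly be lower, and the count is no independent support. Tgfbi, a matrix protein of macrophages, lay at 7.29, 7.43 and 6.57 in CD103+ cells, against 4.97, 4.55 and 4.45 in CD103- cells, at least 3.06-fold higher (adjusted p = 0.00846 in limma's fit). Lgmn, a lysosomal protease, had a difference of 2.0 (SE 0.287, adjusted p = 0.0244), or 1.69 once the undetected arrays were set to the limit of detection. The fractalkine receptor Cx3cr1 had one of 1.99 (SE 0.218, adjusted p = 0.00903), or 1.77 on the same footing. For the immunoglobulin receptor Fcgr3 the lower bound was 2.51-fold (adjusted p = 0.0143). For Ms4a7, named after its value was seen, it was 1.69-fold (adjusted p = 0.0177). With the replicate number as a block 3 of the 5 passed, with Fcgr3 at an adjusted p of 0.0515 (8.09e-04 to 0.646 over 20 alternatives) and Lgmn at 0.0522 (2.1e-05 to 0.146). The count came to 0 when CD103+ array 1 was left out, to 1 without array 2 and to 1 without array 3 of that population. It was 3 without CD103- array 2 and also without both dim CD103- arrays. In this list the median difference was 0.46, or 0.40 with 5 undetected members at their bound, against 0.05 over all genes. Well known macrophage genes with a probe but too few detections to be tested were Cd5l, Vsig4, Folr2, Fcgr1, Msr1, Cybb, Itgam and Siglec1.

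In lists of the pathways these genes belong to few genes passed, as did few of all genes tested (1.16% higher and 0.222% lower). At that share lists this small can hold no passing gene, so nothing is read from these counts. No member passed among 6 tested myeloid transcription factors, where Cebpb lay at 0.15 and Irf8 at -0.49, and Spi1, which encodes PU.1, was not detected often enough to be tested. The same held for 6 complement genes outside C1q, with Cfp, properdin, at 1.15 (SE 0.205, adjusted p = 0.0540 in limma's fit), Cr1l at 0.01 and, named after its value was seen, Cd93 at -0.92 (SE 0.179, adjusted p = 0.0704), for 7 lipid genes, with Npc1 at 0.10 and Npc2 at 0.15, and for 16 iron genes, with the ferritin chains Fth1 at 0.06 and Ftl1 at -0.10. Among 12 genes of apoptotic cell uptake Stab2, a scavenger receptor, passed with a lower bound of 1.21-fold (adjusted p = 0.0177 in limma's fit), and 0 were lower. Blocking on the replicate number took its adjusted p to 0.0630 (range 0.0109 to 0.9999 in 19 alternatives, 6 of them passing). Elmo1 and Cd47 of that list lay at 0.14 and 0.02.

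Markers of other cell types were scarce among the genes tested. Their counts stand beside 1.16% of all genes higher and 0.222% lower, and nothing is read from them. Of 3 monocyte genes S100a4, a calcium-binding protein that T cells also make, was higher by 1.85 (SE 0.211, adjusted p = 0.0109 in limma's fit), while Ccr2 lay at -0.14. No gene passed among 4 dendritic cell genes (Bst2 0.70, Siglech -0.48), 3 B cell genes (Cd79b 0.72, Ebf1 -0.15), 2 of fibroblasts and endothelium (Pecam1 -1.02, Kdr 0.14) or 1 of eosinophils and mast cells (Cpa3 0.17). In thymic epithelium 1 of 3 passed, Cd40, which B cells and macrophages also express, at least 1.32-fold higher (adjusted p = 0.0481). That call was lost with the replicate block (adjusted p = 0.103, range 0.0293 to 0.9999 in 20 alternatives, 5 of them passing). Its brighter genes Ccl25 and Ly75 lay at 0.12 and 0.23. Of the 9 MHC class II genes none passed, with H2-DMa at -0.10 and Cd74 at 1.01. H2-Aa, named after its value was seen, lay at 8.23, 8.28 and 7.76 in CD103+ cells, against 6.64, 5.52 and 6.83 in CD103- cells (adjusted p = 0.0741 in limma's fit). In the NKT and T cell list Itgae alone passed, and the list median was -0.11.

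**Figure D3:**
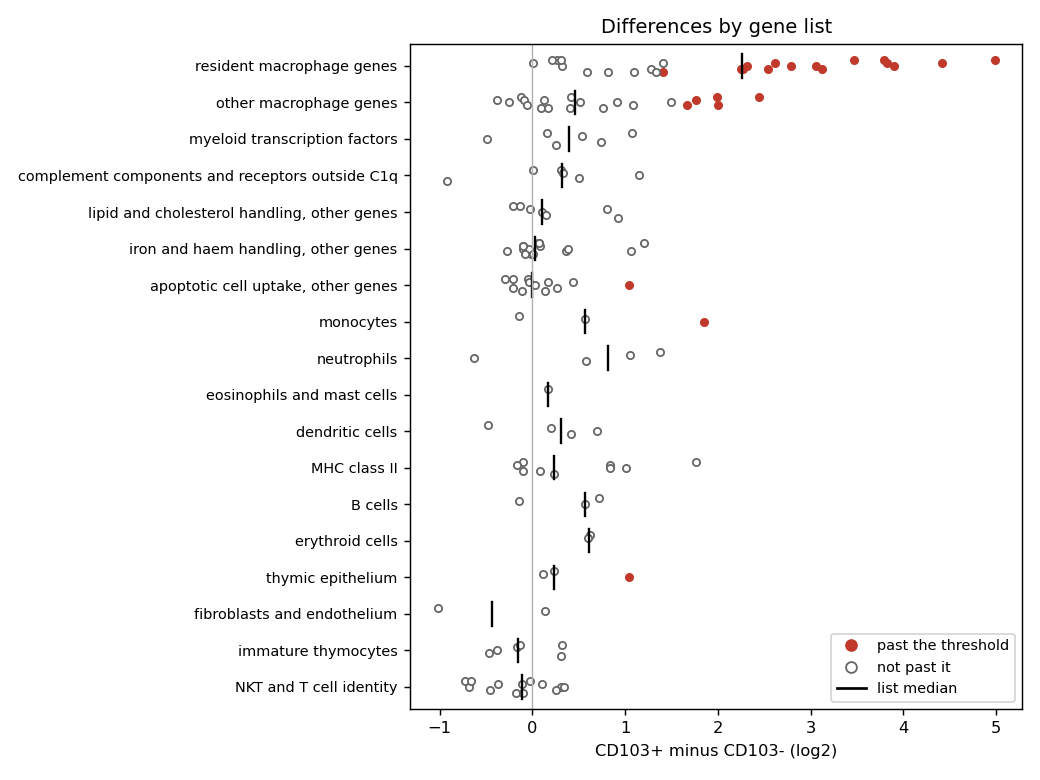
Each point is a tested gene, placed by its log2 difference of CD103+ minus CD103-, filled where it passed an adjusted p of 0.05, with a bar at the list median. Itgae is left out of the lowest list. The resident macrophage genes reach 4.98 (Lyz2) and have a median of 2.26, while other macrophage genes have 0.46.

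Other settings moved the sizes of the differences. Lyz1, detected on all 6 arrays, ran from 3.32 to 5.31 over 20 alternatives, against 4.41 as reported. Differences were positive in 507 of 516 values over the 26 genes and the alternatives. The exceptions were in Maf1, positive in 13 of 20, and Timd4, positive in 17 of 19. Since the genes were selected on this difference, nothing is read from these signs.

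**Figure D4:**
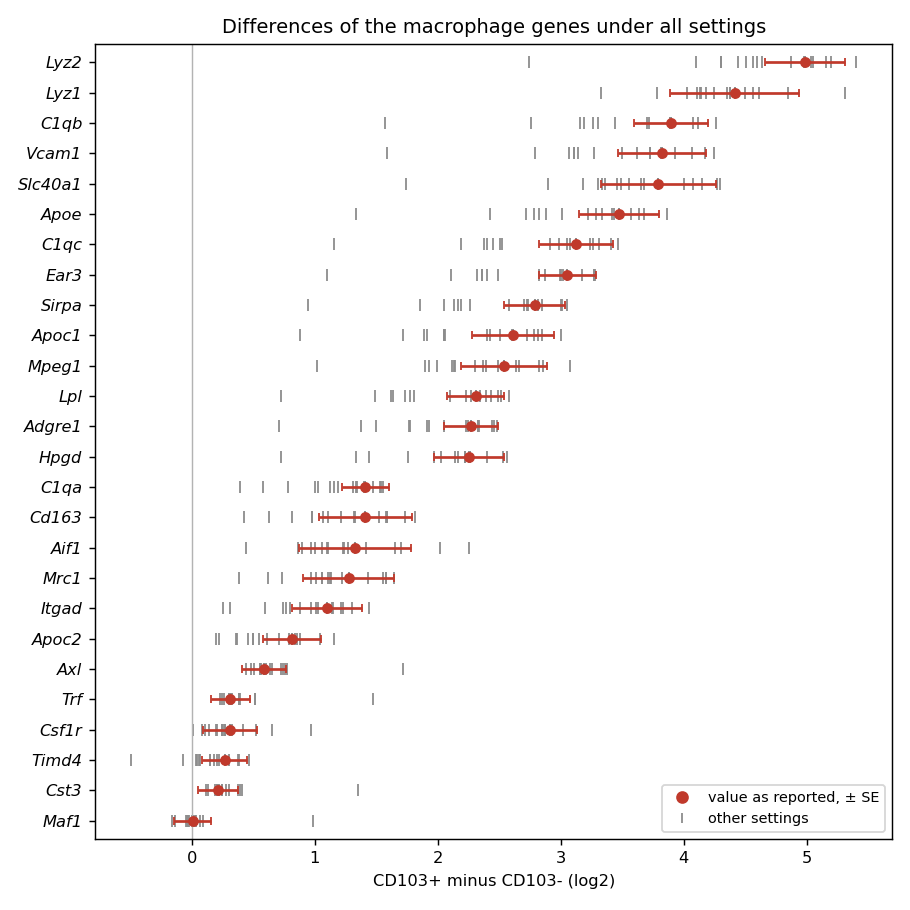
Log2 difference of each tested macrophage gene as reported (red, with SE) and under each other setting (grey ticks). Genes run from Lyz2 at 4.98 down to Maf1 at 0.01, and 24 of the 26 stay above 0 under all settings drawn. The genes were selected on this difference.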

How the data were processed

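Total RNA of 3 CD103+ and 3 CD103- samples was made into biotin-labelled cRNA and hybridised to Illumina arrays, per the labels' protocols. The authors deposited intensity values, 1 signal per probe and array without normalization, each beside another value named a detection p-value, per the file headers. A second deposited table holds log2 values, and how the authors scaled them is not given in the sources used here. The medians of its CD103+ columns were 5.2, 5.18 and 5.21, and those of its CD103- columns 5.21, 5.42 and 5.42, so the centring stays unknown. It served only as an alternative.

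Of 45281 probes 18 with shifted lines were left out. Probes were named through the array annotation and RefSeq's mouse gene table: 34874 had 1 symbol, 18 several and 10371 none. Signals went through neqc (offset 16, background from the detection p-values) of limma 3.58.1 in R 4.3.3. A probe entered the fit if 3 or more of the 6 arrays detected it (detection p under 0.05), which 17462 probes of 8999 genes did. The fit used lmFit and eBayes, and p-values were two-sided, Benjamini-Hochberg adjusted over all 17462, and called at 0.05. The test was also tried on simulated data, built from the mean and spread of each tested probe on these arrays. Noise was drawn independently for each probe and array, so its false calls do not cover shifts that genes share on an array. The test recovered 35% of 100 probes changed by 1 log2 unit and 86% of 100 changed by 2, with 6 false calls. Many changes of 1 log2 unit would thus be missed.

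The set of genes, the 17 other lists and the alternatives were chosen with earlier results of these data known. The rule for names was all 32 genes, Itgae, and from each list up to 4 genes past the threshold with the largest difference or, under 2 of these, the 2 with the highest mean. Deviations of same-numbered arrays of the populations had correlations of 0.170, 0.125 and 0.305 over the tested probes. Arrays of unlike number had correlations of -0.231 to 0.082. The labels do not state a pairing, and correlations among 3 arrays per population cannot establish one. Reported SEs, adjusted p-values and counts are therefore from the unpaired fit unless a block is named. Where blocking changed a call, its result is given as well.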

Additional observations from a re-analysis of the deposited data

How the results depend on the processing

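There were 21 planned and 2 added settings, those 2 chosen after seeing the data (median scaling and the authors' values, each centred on the median of all tested probes). No macrophage gene past the threshold changed direction under the 20 settings that gave a new difference. The others changed only the threshold or the probes counted. These genes were selected on this difference, and 11 of the 15 were detected on no CD103- array, so their direction supports nothing. Of 516 values of the 26 macrophage genes under alternatives, 399 moved by less than the spread between arrays and 117 by more. The count of probes past the threshold was 206. It was 324 without background correction, 313 with the authors' values, 369 with an intensity trend and robust eBayes, 397 with array weights, 83 with the replicate block, 60 at an adjusted p of 0.01, 135 without the dim CD103- arrays, where the lone CD103- array is taken to vary like the others, and 52 to 857 when 1 array was left out. Median scaling of background-corrected signals left brightness in place, with the median of all probes at 0.96. It gave 7154 probes, 23 of the 26 macrophage genes and 12 other macrophage genes. Of the probes past the threshold 99.8% were higher, against 78.6% as reported. After centring, median scaling gave 68 probes, 11 of the 26 and 0 other macrophage genes. An adjusted p of 0.01 left 9 of the 26 and 2 of the other macrophage genes. The other macrophage genes came to 3 with the replicate block and to 3 without the dim arrays. Leaving out 1 array gave 10 to 16 of the 26, with 5 calls lost without CD103+ array 1 or 3, and 0 to 5 other macrophage genes. Among probes past the threshold the share that was higher also moved. It was 90.4% with the replicate block, 91.7% at an adjusted p of 0.01 and 88.9% to 93.2% without 1 CD103+ array. It was 62.6% with the trend, 63.9% without background correction, 64.0% with cyclic loess and 68.6% with an offset of 50. With centred median scaling it was 64.7%, and with the authors' values centred 63.4%. The causes were not tested. The slide was not run as a block, since no slide is named. Signal near background limits C1qa, Itgad, Timd4, Csf1r and Spic.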
